A study of Homo sapiens with 13 samples.

Results

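The 10 genes described here encode the mTOR kinase (MTOR), its partner subunits (RPTOR, RICTOR), the GTPases and inhibitors that control it (RHEB, RRAGC, TSC1, TSC2), its stress-induced brakes (DDIT4, SESN2) and FKBP1A, the protein that rapamycin binds. They were found by symbol among the 26454 genes of the deposited table, and all 10 were present, each with 1 row. The 13 libraries came from the human osteosarcoma line U2OS and hold either RNA that came down with eIF4G in an immunoprecipitation (IP) or total RNA depleted of ribosomal RNA. Each of 3 conditions was sampled in both fractions. CDK12 siRNA cells received an siRNA against CDK12, a kinase of RNA polymerase II, together with mock treatment (2 IP and 2 total RNA libraries). Rapamycin cells received the control siRNA and rapamycin at 50 ng/ml for 24 h (2 and 2). Control cells received the control siRNA and mock treatment (3 and 2). Every group was thus transfected with an siRNA, for 48 h. The mock treatment is not described further in the labels, and the only cells studied were of this 1 line. The design asks how the mRNAs associated with eIF4G change when CDK12 is depleted and when mTOR is inhibited, with total RNA as the measure of abundance.

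mTOR works in a pair of complexes. In mTORC1 the kinase is joined to RPTOR (raptor), which recruits substrates such as the eIF4E-binding proteins and S6 kinase, and in mTORC2 it is joined to RICTOR, which directs it to AKT. Amino acids bring mTORC1 to the lysosome through Rag GTPases, of which RRAGC encodes one, and there the GTPase Rheb switches the kinase on. The proteins of TSC1 and TSC2 form a complex that turns Rheb off, DDIT4 (REDD1) activates that complex under stress, and SESN2 (sestrin 2) senses leucine and restrains the Rag branch. Rapamycin acts by joining FKBP1A (FKBP12) to mTOR in mTORC1. The eIF4E-binding proteins that mTORC1 phosphorylates compete with eIF4G, the scaffold of the cap-binding complex, for the cap-binding protein eIF4E.

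Depths, recovered from the whole-read steps of the deposited values, lay between 12.9 and 30.6 (in units of 1e6 tags). The mean rapamycin IP resembled rapamycin total RNA (r = 0.94 over genes) more than the control IP (r = 0.84), whereas the CDK12 siRNA IP resembled the control IP (r = 0.97). Genes are not independent replicates in these correlations. Tags inside gene bodies made up 91.4% to 93.3% of the rapamycin IP libraries and 96.4% to 98.1% of the other IP libraries, and a single gene, MYO1D, took 5.50% and 6.31% of the tags in the rapamycin IP. The 2 CDK12 siRNA IP libraries differed from each other more than any other replicate pair did, where chi-square over its degrees of freedom came to 57.6, against 3.53 to 22.4 for the other pairs. The part of these features in the results was not tested. The rapamycin libraries carry a date code of their own, so this code and rapamycin cannot be told apart. No IP with a control antibody was analysed here. CDK12 measured 0.706 and 0.707 FPKM in CDK12 siRNA total RNA, against 1.64 and 1.72 FPKM in control total RNA, a change of -0.55 ± 0.05 (adjusted p = 4.53e-05). Rapamycin total RNA held 1.25 and 1.29 FPKM of CDK12, a change of -0.37 ± 0.05 (adjusted p = 0.000904). In the IP, CDK12 changed by -0.17 ± 0.05 after CDK12 siRNA (adjusted p = 0.0264) and by 0.22 ± 0.05 with rapamycin (adjusted p = 0.0028). In scaled FPKM, total RNA held 0.800 and 0.812 of CDK12 after CDK12 siRNA, against 1.58 and 1.71 in control cells. CDK12 passed the filter on low values, given below, through control and rapamycin total RNA alone, so its tests are descriptions. Of 7 bone and mesenchymal markers, 5 reached 1 FPKM in a library (ALPL and COL1A2 did not), as did 1 of 6 haematopoietic, 1 of 5 epithelial and 0 of 3 neural markers. The summed haematopoietic markers stayed between 0.301 and 1.11 FPKM, and the summed epithelial markers between 0.256 and 1.73 FPKM.

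Levels are the deposited FPKM, counted over whole gene bodies with introns, so they are per base of gene body. An order of genes with unlike gene bodies is therefore not an order of transcript abundance. Changes are differences of log2(scaled FPKM + 1) ± SE from one limma fit of 9908 genes, with p-values adjusted over all of them and a threshold of 0.05. This scale understates the change of genes below about 1 FPKM, so the ratio of mean scaled FPKM is given beside some changes. SDs rest on 3 libraries in the control IP and on 2 in every other group. The labels do not say whether replicates came from separate cultures, so the spread behind the p-values is that of these libraries and may be technical. In such bulk samples, fewer cells of a kind and less RNA per cell cannot be told apart. Behind each value of the 10 genes lay between 181 and 8374 reads.

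The genes differ widely in size, from the 2120 bp of DDIT4 to the 421548 bp of RPTOR (hg19, gene bodies as counted, introns and exons together). The kinase subunits were long. MTOR lies on chromosome 1 from 11166588 to 11322608 (minus strand), RPTOR on chromosome 17 from 78518625 to 78940173 (plus), and RICTOR on chromosome 5 from 38938023 to 39074510 (minus). RHEB lies on chromosome 7 from 151163098 to 151217010 (minus), RRAGC on chromosome 1 from 39303869 to 39325495 (minus), TSC1 on chromosome 9 from 135766735 to 135820020 (minus) and TSC2 on chromosome 16 from 2097990 to 2138713 (plus). DDIT4 lies on chromosome 10 from 74033677 to 74035797 (plus), SESN2 on chromosome 1 from 28585963 to 28609002 (plus) and FKBP1A on chromosome 20 from 1349621 to 1373816 (minus). The sources used here do not give whether counting used strand, so a gene that overlaps another has uncertain values. This concerns MTOR (MTOR-AS1 and ANGPTL7), RPTOR (LOC101928855), TSC2 (PKD1) and FKBP1A (MIR6869, SDCBP2-AS1 and the readthrough gene FKBP1A-SDCBP2). FKBP1A also has processed copies elsewhere in the genome that can share its reads. Of the 10 genes, 9 passed the filter of at least 1 FPKM in at least 2 libraries. RPTOR did not, and it was tested only in a fit with no filter on low values. MTOR passed through rapamycin total RNA alone and TSC2 through the rapamycin groups alone. SESN2 passed through the CDK12 siRNA groups, since beside them only IP control replicate 1 reached 1 FPKM. Counts over the 9 are therefore descriptions. The p-values of MTOR and TSC2 in rapamycin comparisons are given also from the fit with no filter, which tested 24150 genes.

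RefSeq promoter windows of GRCh38.p14 (250 bases before to 50 after the start) were found for 10 of the 10 genes, in 11 windows. The E-box CACGTG, the same on both strands and the core bound by MYC and TFE factors, lay in those of RRAGC and TSC2, and in 7.26% of all 35116 windows. The stretches around it are shown because these are the members that hold it, and the total RNA of each is tested below under both treatments. The E-box is in capitals. It begins at -112 from the start of RRAGC (chr1:38859849-38859914, minus strand) and at -114 from that of TSC2 (chr16:2047841-2047906, plus strand).
RRAGC: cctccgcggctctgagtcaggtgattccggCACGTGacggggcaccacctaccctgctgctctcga
TSC2: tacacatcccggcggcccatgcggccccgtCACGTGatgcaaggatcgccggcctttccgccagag
The core TGATGNAA, bound by CCAAT-enhancer and ATF proteins and searched on both strands, was found in TSC2 alone of the 10, where it overlaps the E-box, and in 3.62% of all windows. The cyclic AMP element TGACGTCA, the same on both strands, lay in none of the 11 windows and in 1.85% of all. These matches are descriptions of letters, and neither a match nor the lack of one shows whether a factor binds.

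In the control cells DDIT4, the shortest gene, had the highest FPKM of the 10 in both fractions and RPTOR, the longest, the lowest. The kinase and RICTOR were near the lower end of the IP. In reads per library DDIT4 had 204 to 1391 and RPTOR 271 to 5181 over all libraries, so this order is per base of gene body. In the control IP the mean levels ran in the order DDIT4 (26.4 ± 0.521 FPKM), FKBP1A (3.90 ± 0.302), RHEB (3.23 ± 0.133), RRAGC (2.54 ± 0.0664), SESN2 (0.947 ± 0.0719), TSC1 (0.899 ± 0.142), RICTOR (0.531 ± 0.0283), TSC2 (0.329 ± 0.0182), MTOR (0.194 ± 0.0181) and RPTOR (0.0477 ± 0.00404). Of the neighbours in that order, the libraries of SESN2 and TSC1 overlapped. In control total RNA the order was DDIT4 (5.60 ± 0.440 FPKM), FKBP1A (2.00 ± 0.322), RICTOR (1.75 ± 0.0983), TSC1 (1.70 ± 0.00919), RRAGC (1.35 ± 0.197), RHEB (1.09 ± 0.112), MTOR (0.760 ± 0.0163), TSC2 (0.703 ± 0.0976), SESN2 (0.674 ± 0.127) and RPTOR (0.438 ± 0.0276). Here FKBP1A and RICTOR, RICTOR and TSC1, MTOR and TSC2, and TSC2 and SESN2 overlapped. RHEB stood 3 places higher in the order of the IP than in that of total RNA, and RICTOR 4 places lower.

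**Figure D1:**
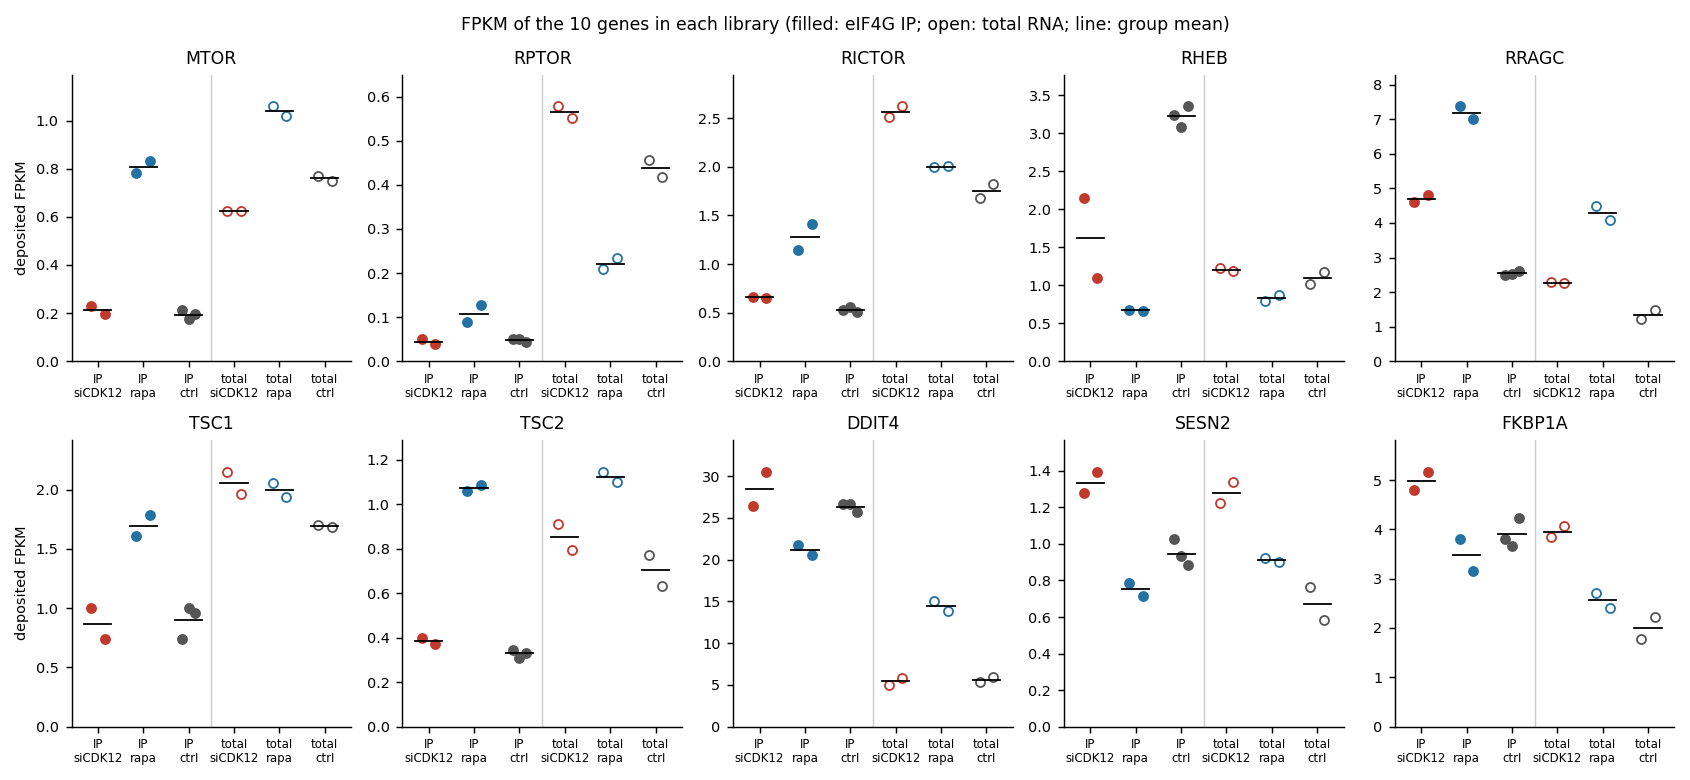
Deposited FPKM (linear axis from 0, one scale per panel) of each of the 10 genes in every library, with filled points for eIF4G IP, open points for total RNA and lines for group means. The 3 control IP libraries of RHEB lie between 3.09 and 3.36 FPKM, above every other RHEB library, and the rapamycin IP of MTOR lies at 0.783 and 0.831 FPKM, above the other IP libraries.

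MTOR RNA was higher in the rapamycin IP, and it passed the test neither in total RNA under either treatment nor in the CDK12 siRNA IP. MTOR had 0.231 and 0.197 FPKM in the CDK12 siRNA IP, 0.783 and 0.831 in the rapamycin IP, and 0.211, 0.175 and 0.196 in the control IP. In total RNA it had 0.626 and 0.626 FPKM after CDK12 siRNA, 1.06 and 1.02 with rapamycin, and 0.771 and 0.748 in control cells. The rapamycin IP libraries lay above all the control IP libraries, while the CDK12 siRNA IP libraries overlapped them. MTOR rose in the rapamycin IP by 0.51 ± 0.04 (adjusted p = 3.2e-06), with a ratio of mean scaled FPKM of 3.34. The adjusted p was 2.36e-06 with no filter, and the change was 0.28 with quantile normalization. Total RNA of MTOR did not pass the test with rapamycin, at 0.09 ± 0.04 (adjusted p = 0.148), nor after CDK12 siRNA, at -0.03 ± 0.04 (adjusted p = 0.672). Without scaling the rapamycin change in total RNA was called, at 0.21.

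RICTOR, the defining subunit of mTORC2, rose in total RNA after CDK12 siRNA and in the IP with rapamycin. It had 0.666 and 0.648 FPKM in the CDK12 siRNA IP, 1.15 and 1.41 in the rapamycin IP, and 0.523, 0.562 and 0.507 in the control IP. Total RNA held 2.51 and 2.62 FPKM of RICTOR after CDK12 siRNA, 2.00 and 2.00 with rapamycin, and 1.68 and 1.82 in control cells. The deposited values of both treatments lay above control in both fractions, but the rapamycin and control total RNA overlapped once scaled. RICTOR rose by 0.53 ± 0.06 in total RNA after CDK12 siRNA (adjusted p = 9.18e-05, ratio 1.70) and by 0.43 ± 0.05 in the rapamycin IP (adjusted p = 5.75e-05, ratio 1.93). Its rapamycin total RNA differed by -0.04 ± 0.06 (adjusted p = 0.617), and its CDK12 siRNA IP by 0.05 ± 0.05 (adjusted p = 0.523).

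RPTOR, the defining subunit of mTORC1, stayed below 1 FPKM in every library. It had 0.050 and 0.038 FPKM in the CDK12 siRNA IP, 0.088 and 0.128 in the rapamycin IP, and 0.050, 0.050 and 0.043 in the control IP. Total RNA held 0.578 and 0.552 FPKM after CDK12 siRNA, 0.209 and 0.234 with rapamycin, and 0.457 and 0.418 in control cells. In total RNA the CDK12 siRNA libraries lay above control and the rapamycin libraries below it, with ratios of mean scaled FPKM of 1.50 and 0.425. The rapamycin IP lay above the control IP, with a ratio of 1.82. In the fit with no filter, the total RNA tests of RPTOR gave 0.20 ± 0.02 after CDK12 siRNA (adjusted p = 8.53e-05) and -0.27 ± 0.02 with rapamycin (adjusted p = 6.5e-05). Its IP tests in that fit gave -0.01 ± 0.02 after CDK12 siRNA (adjusted p = 0.766) and 0.06 ± 0.02 with rapamycin (adjusted p = 0.0266). The IP relative to total RNA changed by -0.22 ± 0.03 after CDK12 siRNA (adjusted p = 0.000625) and by 0.33 ± 0.03 with rapamycin (adjusted p = 5.63e-05).

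RHEB, the GTPase that activates mTORC1, was the member that fell in the IP under both treatments, beside the same control libraries. RHEB had 2.14 and 1.10 FPKM in the CDK12 siRNA IP, 0.670 and 0.666 in the rapamycin IP, and 3.24, 3.09 and 3.36 in the control IP. In total RNA the gene had 1.22 and 1.19 FPKM after CDK12 siRNA, 0.796 and 0.874 with rapamycin, and 1.01 and 1.17 in control cells. Each treated IP library lay below every control IP library, but the 2 CDK12 siRNA libraries were far apart. The IP change was -0.86 ± 0.13 after CDK12 siRNA (adjusted p = 0.00136, ratio 0.440) and -1.53 ± 0.13 with rapamycin (adjusted p = 4.68e-06, ratio 0.166). Total RNA passed the test under neither treatment, at 0.20 ± 0.14 after CDK12 siRNA (adjusted p = 0.295) and -0.30 ± 0.14 with rapamycin (adjusted p = 0.128). The CDK12 siRNA change in the IP was -1.14 without the library of replicate 2 and -0.58 without that of replicate 3, and it missed the threshold when these groups were fitted alone (-0.86, adjusted p = 0.0543). The rapamycin change in total RNA passed the threshold when its groups were fitted alone (adjusted p = 0.021) and with quantile normalization (-0.47).

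TSC1 and TSC2, which encode the complex that turns Rheb off, both rose in the rapamycin IP and in total RNA after CDK12 siRNA. TSC1 had 0.999 and 0.741 FPKM in the CDK12 siRNA IP, 1.61 and 1.79 in the rapamycin IP, and 0.736, 0.998 and 0.963 in the control IP. Its total RNA stood at 2.15 and 1.97 FPKM after CDK12 siRNA, 2.06 and 1.94 with rapamycin, and 1.70 and 1.69 in control cells. Both rapamycin IP libraries lay above the control IP, and the CDK12 siRNA IP overlapped it. TSC1 rose by 0.34 ± 0.07 in the rapamycin IP (adjusted p = 0.002) and by 0.33 ± 0.08 in total RNA after CDK12 siRNA (adjusted p = 0.00813). TSC2 had 0.400 and 0.373 FPKM in the CDK12 siRNA IP, 1.06 and 1.09 in the rapamycin IP, and 0.345, 0.309 and 0.332 in the control IP. In total RNA TSC2 had 0.912 and 0.793 FPKM after CDK12 siRNA, 1.15 and 1.10 with rapamycin, and 0.772 and 0.634 in control cells. In deposited FPKM the rapamycin libraries of TSC2 were the highest in each fraction, and they did not overlap control. In scaled FPKM total CDK12 siRNA replicate 1 was the highest of total RNA (1.03, against 0.935 and 0.909 with rapamycin). TSC2 rose by 0.53 ± 0.05 in the rapamycin IP (adjusted p = 6.48e-06, ratio 2.62), by 0.19 ± 0.05 in rapamycin total RNA (adjusted p = 0.0188) and by 0.22 ± 0.05 in total RNA after CDK12 siRNA (adjusted p = 0.00645). With no filter the adjusted p was 1.21e-05 in the rapamycin IP and 0.0145 in rapamycin total RNA. The rapamycin IP change of TSC2 was 0.34 with quantile normalization and its total RNA change 0.32 without scaling, and the rapamycin IP change of TSC1 was 0.51 without scaling. In the CDK12 siRNA IP neither passed, at -0.11 ± 0.07 for TSC1 (adjusted p = 0.267) and 0.01 ± 0.05 for TSC2 (adjusted p = 0.853), and TSC1 did not pass in rapamycin total RNA, at -0.01 ± 0.08 (adjusted p = 0.918). The small total RNA changes depended on settings and libraries: without scaling neither gene was called after CDK12 siRNA (0.18 for TSC1, 0.12 for TSC2), and the calls of both ended without total CDK12 siRNA replicate 1 (0.29 and 0.18) and that of TSC2 also without total control replicate 2 (0.18). The rapamycin call of TSC2 in total RNA ended without total control replicate 2 (0.14), total rapamycin replicate 1 (0.18) or replicate 2 (0.20).

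RRAGC, the Rag GTPase, rose in both fractions under both treatments. RRAGC had 4.60 and 4.80 FPKM in the CDK12 siRNA IP, 7.37 and 7.003 in the rapamycin IP, and 2.49, 2.52 and 2.61 in the control IP. Its total RNA held 2.28 and 2.26 FPKM after CDK12 siRNA, 4.48 and 4.09 with rapamycin, and 1.21 and 1.49 in control cells. No treated library overlapped the control libraries of its fraction, and the rapamycin libraries were the highest. In the IP it rose by 0.55 ± 0.07 after CDK12 siRNA (adjusted p = 0.00054, ratio 1.63) and by 0.96 ± 0.07 with rapamycin (adjusted p = 1.64e-06, ratio 2.28). In total RNA it rose by 0.63 ± 0.07 after CDK12 siRNA (adjusted p = 0.00015, ratio 1.95) and by 0.96 ± 0.07 with rapamycin (adjusted p = 5.07e-05, ratio 2.65). Both treatments are set against the same control libraries, so the pair of results is not independent.

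DDIT4, a stress-induced inhibitor of mTORC1, rose in total RNA with rapamycin but not in the IP. DDIT4 had 26.4 and 30.5 FPKM in the CDK12 siRNA IP, 21.7 and 20.6 in the rapamycin IP, and 26.7, 26.6 and 25.8 in the control IP. Total RNA of DDIT4 stood at 5.01 and 5.84 FPKM after CDK12 siRNA, 15.04 and 13.8 with rapamycin, and 5.29 and 5.91 in control cells. The rapamycin libraries lay above control in total RNA and below it in the IP. The change with rapamycin was 0.99 ± 0.12 in total RNA (adjusted p = 0.000381, ratio 2.16) and -0.61 ± 0.11 in the IP (adjusted p = 0.000774, ratio 0.645), where it was -0.31 without scaling and quantile normalization turned it to 0.30 (adjusted p = 0.026). After CDK12 siRNA neither fraction passed, at 0.15 ± 0.12 in total RNA (adjusted p = 0.369) and -0.07 ± 0.11 in the IP (adjusted p = 0.652).

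SESN2, the leucine sensor, rose in total RNA after CDK12 siRNA and fell in the rapamycin IP. SESN2 had 1.28 and 1.40 FPKM in the CDK12 siRNA IP, 0.789 and 0.714 in the rapamycin IP, and 1.03, 0.934 and 0.883 in the control IP. Its total RNA was 1.22 and 1.34 FPKM after CDK12 siRNA, 0.923 and 0.904 with rapamycin, and 0.763 and 0.584 in control cells. The CDK12 siRNA libraries were the highest in each fraction. SESN2 rose by 0.57 ± 0.07 in total RNA after CDK12 siRNA (adjusted p = 0.000149, ratio 2.22), and its rapamycin IP change was -0.30 ± 0.06 (adjusted p = 0.00171, ratio 0.638), or -0.15 without scaling. SESN2 passed the filter through the CDK12 siRNA groups, where it was highest. Its total RNA call after CDK12 siRNA held in all 11 alternatives, the fit with no filter among them. The IP after CDK12 siRNA lay above control in every library but missed the threshold at 0.17 ± 0.06 (adjusted p = 0.0616). It passed without scaling (0.26), without IP CDK12 siRNA replicate 2 (0.22) and without IP control replicate 1 (0.21). Rapamycin total RNA did not pass, at 0.08 ± 0.07 (adjusted p = 0.386), and was called at 0.20 without scaling.

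FKBP1A, the intracellular receptor of rapamycin, had the largest total RNA rise of the 9 tested genes after CDK12 siRNA on the fitted scale. FKBP1A had 4.80 and 5.17 FPKM in the CDK12 siRNA IP, 3.80 and 3.16 in the rapamycin IP, and 3.81, 3.66 and 4.24 in the control IP. Total RNA held 3.84 and 4.07 FPKM of FKBP1A after CDK12 siRNA, 2.72 and 2.41 with rapamycin, and 1.78 and 2.23 in control cells. The CDK12 siRNA libraries were the highest in each fraction. FKBP1A rose in total RNA by 0.90 ± 0.11 after CDK12 siRNA (adjusted p = 0.00016, ratio 2.29), while its IP change of 0.14 ± 0.10 did not pass (adjusted p = 0.302). Without scaling that IP change was called, at 0.29. With rapamycin its total RNA differed by 0.07 ± 0.11 (adjusted p = 0.645), and the IP change was -0.38 ± 0.10 (adjusted p = 0.00617, ratio 0.718), where the deposited values overlapped control and the scaled values did not. That call ended without scaling (-0.13), with quantile normalization (-0.08) and without IP rapamycin replicate 2 (-0.27).

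Counted over the 9 genes tested, 6 rose and 0 fell in total RNA after CDK12 siRNA (FKBP1A, RRAGC, SESN2, RICTOR, TSC1 and TSC2), where 42.8% of all tested genes were called, 23.3% up and 19.5% down (2308 and 1933 genes). Their median was 0.33, beside 0.02 for all genes. Without scaling, the split over all genes was 1276 up and 2754 down, and the median of all genes moved to -0.10. It was 1376 up and 1382 down without total CDK12 siRNA replicate 1, and 1379 up and 1355 down without replicate 2. With rapamycin 3 of the 9 rose and 0 fell in total RNA (DDIT4, RRAGC and TSC2), beside 36.7% called over all genes, 20.4% up and 16.2% down (2025 and 1608 genes). Here the split was 4160 up and 901 down without scaling, with a median of 0.22 in place of 0.06, and 2501 up and 3013 down with quantile normalization. Leaving out 1 total RNA library gave 841 up and 922 down (rapamycin replicate 1), 1232 and 1067 (rapamycin replicate 2), 1255 and 1064 (control replicate 1) or 1142 and 954 (control replicate 2). In the IP after CDK12 siRNA, RRAGC rose, RHEB fell and 7 did not pass, beside 32.0% called, 13.7% up and 18.4% down (1354 and 1820 genes, or 2371 up and 976 down without scaling). Over all genes 456 rose and 564 fell when these groups were fitted alone, and 427 and 679 with library weights. In the rapamycin IP each of the 9 was called, 5 up and 4 down, beside 72.5% of all genes, 32.2% up and 40.3% down (3194 and 3989 genes, or 4235 up and 3106 down without scaling, with a median of 0.12 in place of -0.05). With so large a share called over all genes, these calls do not set the 9 genes apart.

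**Figure D2:**
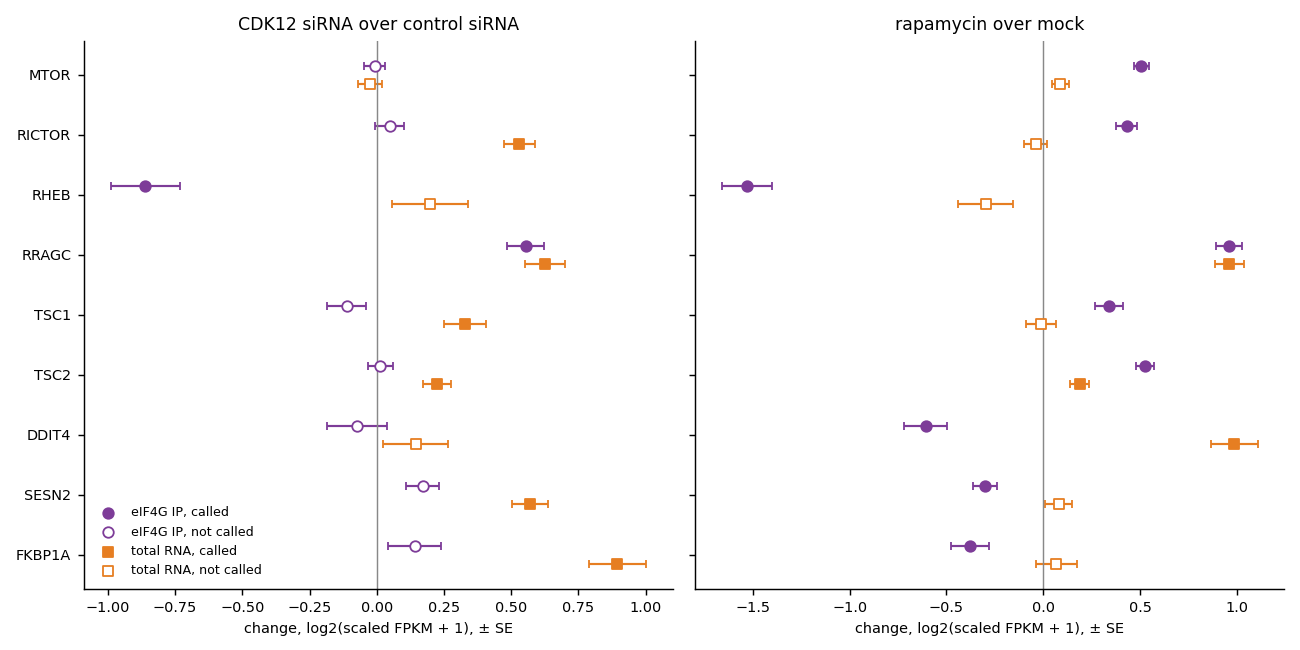
Change of each of the 9 tested genes, as the difference of log2(scaled FPKM + 1) ± SE, after CDK12 siRNA (left) and with rapamycin (right), in the eIF4G IP (circles) and in total RNA (squares), filled where the adjusted p was under 0.05. RRAGC lies to the right in all 4 comparisons, RHEB lies at -0.86 and -1.53 in the IP, and the rapamycin IP point of DDIT4, at -0.61, is the one called value here that turned sign (to 0.30) with quantile normalization.

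The change in the IP was then tested relative to the change in total RNA, as the interaction of fraction and treatment in the same fit. After CDK12 siRNA, RNA of 6 of the 9 genes fell in the IP relative to total RNA and 0 rose, beside 39.2% called over all genes, 16.7% up and 22.4% down (1657 and 2224 genes, or 3212 up and 886 down without scaling, with a median of 0.19 in place of -0.03). The counts over all genes were 1170 up and 1416 down without total CDK12 siRNA replicate 1, and 1142 and 1425 without replicate 2. RHEB changed by -1.06 ± 0.19 (adjusted p = 0.00277), FKBP1A by -0.75 ± 0.15 (adjusted p = 0.00379) and RICTOR by -0.48 ± 0.08 (adjusted p = 0.00171). Without scaling FKBP1A stood at -0.44 and RICTOR at -0.26, both still called. For RHEB the called part of this was the IP (-0.86), whereas for FKBP1A and RICTOR it was total RNA (0.90 and 0.53). TSC1 (-0.44 ± 0.11, adjusted p = 0.0104), SESN2 (-0.40 ± 0.09, adjusted p = 0.00833) and TSC2 (-0.21 ± 0.07, adjusted p = 0.0382) were called too, and none of the 3 was called without scaling (-0.20, -0.19 and -0.06). Quantile normalization gave -0.64 for SESN2 and -0.33 for TSC2. The TSC2 call ended in 11 of 16 alternatives, 6 of which each left out 1 library (-0.16 to -0.22). RRAGC, which rose in both fractions, differed between them by -0.07 ± 0.10 (adjusted p = 0.595, 95% interval -0.30 to 0.15), MTOR by 0.02 ± 0.06 (adjusted p = 0.831) and DDIT4 by -0.22 ± 0.16 (adjusted p = 0.319). With quantile normalization RRAGC was called, at -0.45. The RHEB value was -1.34 without IP CDK12 siRNA replicate 2 and -0.78 without replicate 3. With 0.1 added before the log in place of 1, the values were -1.53 for RHEB, -0.996 for FKBP1A, -0.76 for SESN2, -0.68 for TSC1, -0.63 for RICTOR and -0.40 for TSC2.

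With rapamycin, the genes split by direction in the IP relative to total RNA, 4 up and 4 down of 9, beside 62.4% called over all genes, 24.5% up and 37.9% down (2424 and 3755 genes, or 2832 up and 2583 down with quantile normalization). Of those that fell, DDIT4 changed by -1.59 ± 0.16 (adjusted p = 4.76e-05), RHEB by -1.23 ± 0.19 (adjusted p = 0.000449), SESN2 by -0.38 ± 0.09 (adjusted p = 0.00559) and FKBP1A by -0.45 ± 0.15 (adjusted p = 0.0231). The kinase, its mTORC2 subunit and the TSC pair rose, MTOR by 0.42 ± 0.06 (adjusted p = 0.000277), RICTOR by 0.47 ± 0.08 (adjusted p = 0.000689), TSC1 by 0.35 ± 0.11 (adjusted p = 0.0172) and TSC2 by 0.34 ± 0.07 (adjusted p = 0.00217). In control cells the 4 that fell were called higher in the IP than in total RNA, and the 4 that rose were called lower. Both comparisons use the same control libraries. With no filter the adjusted p was 0.000116 for MTOR and 0.00213 for TSC2. Sizes and order depended on the value added before the log. With 0.1 in place of 1, MTOR stood at 1.21, RICTOR at 0.90, TSC2 at 0.81 and TSC1 at 0.59. That setting gave -1.83 for RHEB, -1.73 for DDIT4, -0.75 for SESN2 and -0.57 for FKBP1A, with a median of all genes of -0.25. RRAGC differed by less than 0.01 in size (adjusted p = 0.998, 95% interval -0.23 to 0.23), having risen by 0.96 in each fraction. With quantile normalization DDIT4 stood at -0.58 and MTOR at 0.21, and the calls of FKBP1A (-0.07) and TSC2 (0.12) ended. Leaving out 1 library ended the call of FKBP1A in 3 cases (-0.33 without IP rapamycin replicate 2, -0.32 without total control replicate 1, -0.40 without total rapamycin replicate 1) and that of TSC1 in 3 cases (0.31 without IP rapamycin replicate 2, 0.34 without total control replicate 2, 0.33 without total rapamycin replicate 2).

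The authors' deposited table marks genes that lost eIF4G binding. With CDK12 siRNA it marks RHEB (log2 difference -0.80) and FKBP1A (-0.44) of the 10, among 1114 genes or 4.21% of all. The highest difference marked there was -0.401. With rapamycin, the authors' deposited table marks RHEB (-1.15) and DDIT4 (-1.53), among 3285 genes or 12.4%. The highest difference marked with rapamycin was -0.500, and FKBP1A, at -0.38, was not marked. The cutoffs of the treatments thus differ, so their marked genes and shares are not on one footing. These differences are of FPKM + 1 without scaling, unlike the main fit. The deposited table was made from the same libraries and is no independent measure.

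Set against total RNA within each condition, DDIT4, RRAGC and FKBP1A had ratios above 1 in every condition and MTOR, RICTOR, RPTOR and TSC1 ratios below 1, and the values of the 10 genes spanned less in rapamycin cells. In CDK12 siRNA cells the ratios of mean scaled FPKM, IP over total RNA, were 4.58 for DDIT4, 1.81 for RRAGC, 1.17 for RHEB, 1.10 for FKBP1A, 0.910 for SESN2, 0.396 for TSC2, 0.368 for TSC1, 0.298 for MTOR, 0.223 for RICTOR and 0.0679 for RPTOR. Rapamycin cells gave 1.85 for RRAGC, 1.62 for DDIT4, 1.50 for FKBP1A, 1.06 for TSC2, 0.939 for TSC1, 0.910 for SESN2, 0.884 for RHEB, 0.858 for MTOR, 0.705 for RICTOR and 0.538 for RPTOR. Control cells gave 5.42 for DDIT4, 3.39 for RHEB, 2.24 for FKBP1A, 2.16 for RRAGC, 1.63 for SESN2, 0.609 for TSC1, 0.539 for TSC2, 0.348 for RICTOR, 0.294 for MTOR and 0.126 for RPTOR. Over all tested genes, the median absolute deviation of the log2 difference was 0.73 in CDK12 siRNA cells, 0.27 in rapamycin cells and 0.66 in control cells.

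By the test, DDIT4 (2.03) and RRAGC (0.66) were higher in the IP than in total RNA of CDK12 siRNA cells, RICTOR (-1.25), TSC1 (-0.85), TSC2 (-0.51) and MTOR (-0.50) were lower, and 3 were not called, beside 82.5% of all genes, 55.7% up and 26.8% down (5514 and 2660 genes, or 4080 up and 3708 down with quantile normalization). In rapamycin cells RRAGC (0.74), DDIT4 (0.65) and FKBP1A (0.42) were higher, RICTOR (-0.29) was lower and 5 were not called, beside 51.9%, 38.8% up and 13.1% down (3849 and 1295 genes, against 3028 and 1866 without scaling and 2323 and 2220 with quantile normalization). These counts were 2114 up and 810 down without IP rapamycin replicate 1, and 2235 and 709 without total rapamycin replicate 2. In control cells DDIT4 (2.25), RHEB (1.16), FKBP1A (0.87), RRAGC (0.74) and SESN2 (0.32) were higher and RICTOR (-0.77), MTOR (-0.52), TSC1 (-0.41) and TSC2 (-0.30) lower, beside 80.5%, 54.0% up and 26.4% down (5355 and 2617 genes, or 3881 up and 3752 down with quantile normalization). These directions depended on the scaling for 2 genes: with quantile normalization RRAGC stood at -0.05 in CDK12 siRNA cells and DDIT4 at -0.02 in rapamycin cells. It left DDIT4 at 0.46 in CDK12 siRNA cells, RRAGC at 0.30 and RICTOR at -0.45 in rapamycin cells, and DDIT4 at 0.56, RRAGC at 0.40, FKBP1A at 0.24 and MTOR at -0.29 in control cells. That scaling also ended the calls of FKBP1A in rapamycin cells (0.16) and of TSC2 in control cells (-0.09), and the FKBP1A call ended too without IP rapamycin replicate 1 (0.31) or total rapamycin replicate 2 (0.37). Not called in CDK12 siRNA cells were FKBP1A (0.11), RHEB (0.11) and SESN2 (-0.08), of which quantile normalization put FKBP1A at -0.86. RHEB there was called lower (-0.17) without IP CDK12 siRNA replicate 2 and higher (0.39) without replicate 3. Across the 10 genes the Spearman correlation of the log2 difference with gene body length was -0.73 in CDK12 siRNA cells, -0.88 in rapamycin cells and -0.73 in control cells, and across the 9908 tested genes it was -0.41, -0.38 and -0.33. These are descriptions across genes that share libraries, in values that include introns.

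**Figure D3:**
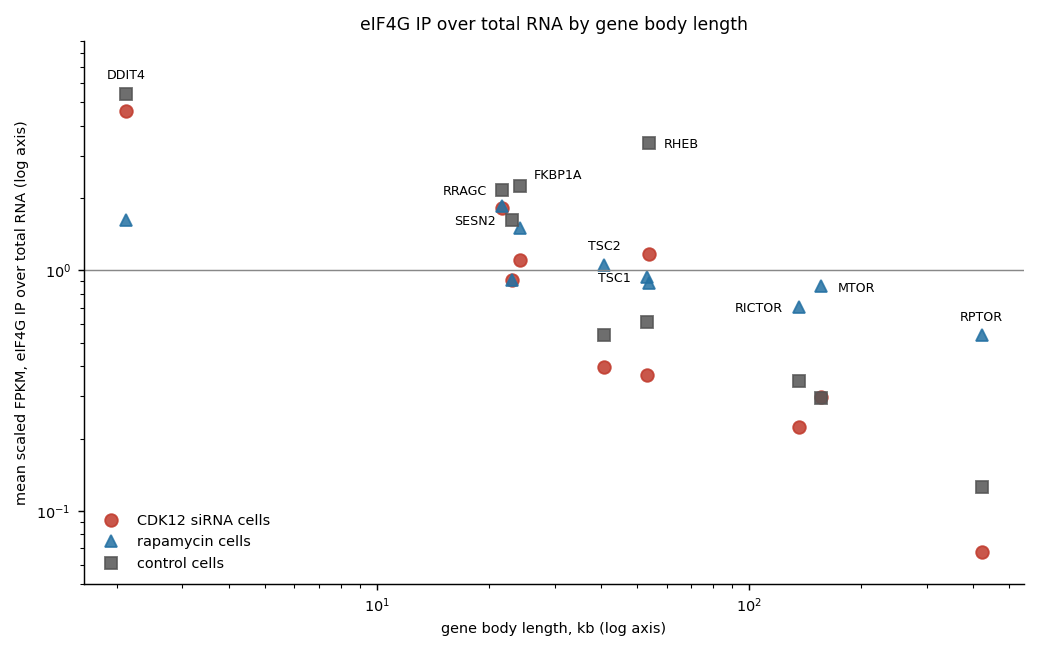
Mean scaled FPKM in the eIF4G IP over that in total RNA (log axis) against gene body length in kb (log axis) for the 10 genes, with one symbol per condition and a line at equal levels. DDIT4, the shortest, lies highest in CDK12 siRNA and control cells (4.58 and 5.42) and RPTOR, the longest, lowest in every condition, while the rapamycin cells span only 0.538 to 1.85.

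Of 66 other genes of the pathway, 45 passed the filter. In total RNA 12 rose and 6 fell after CDK12 siRNA (8 and 9 without scaling), beside 23.3% up and 19.5% down over all genes. With rapamycin 14 rose and 6 fell in total RNA (25 and 2), beside 20.4% and 16.2%. In the IP 10 rose and 8 fell after CDK12 siRNA (15 and 4 without scaling), beside 13.7% and 18.4%. With rapamycin 16 rose and 16 fell in the IP (24 and 15), beside 32.2% and 40.3%. The list was written with earlier results of these data known, and some of its genes passed the filter through treated groups alone. These counts are therefore descriptions.

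The partners of RRAGC, namely the other Rag GTPases, the Ragulator subunits that anchor them to the lysosome and the folliculin complex that acts on RRAGC, were the group with most rises in total RNA. Of 11 tested, 6 rose and 0 fell after CDK12 siRNA (5 and 1 without scaling, 6 and 1 with quantile normalization). Over all genes 23.3% rose and 19.5% fell, and the median of the 11 was 0.37 beside 0.02 for all genes. With rapamycin 8 rose and 0 fell (9 and 0 under either other scaling), beside 20.4% and 16.2%, with a median of 0.49 beside 0.06. RRAGB, RRAGD and FNIP2, which count among these rises, passed the filter through treated groups alone, so the counts of this group are descriptions. FLCN, which encodes folliculin, the protein that switches RRAGC and RRAGD, had 3.72 and 3.57 FPKM in the rapamycin IP, against 0.666, 0.489 and 0.532 in the control IP. In rapamycin total RNA it had 3.52 and 3.55 FPKM, against 1.18 and 1.12 in control total RNA. FLCN rose by 1.40 ± 0.07 in the rapamycin IP (adjusted p = 2.87e-07) and by 0.88 ± 0.08 in rapamycin total RNA (adjusted p = 9.5e-05). After CDK12 siRNA FLCN was also called higher, in both fractions. RRAGD, the close relative of RRAGC, averaged 2.43 ± 0.351 FPKM in the CDK12 siRNA IP and 0.898 ± 0.0864 in the control IP, a rise of 0.76 ± 0.07 (adjusted p = 0.000109). RRAGD was called higher too in CDK12 siRNA total RNA and in both fractions with rapamycin. Since RRAGD passed the filter through treated groups alone, its tests are descriptions. FNIP1, a folliculin partner, rose by 0.50 ± 0.06 in total RNA after CDK12 siRNA (adjusted p = 0.00019), where it averaged 2.53 ± 0.135 FPKM against 1.78 ± 0.0177 in control cells, and was lower in the IP than in total RNA of CDK12 siRNA cells (-1.05 ± 0.06, adjusted p = 2.98e-07). FNIP1 was called higher too in the CDK12 siRNA IP and in both fractions with rapamycin, and lower in the IP than in total RNA of every condition. In the IP, 5 of the 11 rose and 0 fell after CDK12 siRNA (6 and 0 without scaling, 3 and 0 with quantile normalization), beside 13.7% and 18.4% over all genes. With rapamycin 5 rose and 3 fell in the IP (7 and 3, and 6 and 3), beside 32.2% and 40.3%. The 3 were LAMTOR2, LAMTOR3 and LAMTOR5 of the Ragulator (LAMTOR5 overlaps LAMTOR5-AS1).

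Among the relatives of FKBP1A, the FK506-binding proteins, the called genes went both ways. After CDK12 siRNA 1 of 11 rose and 3 fell in total RNA (1 and 4 without scaling or with quantile normalization), beside 23.3% up and 19.5% down over all genes. In the IP 2 rose and 5 fell (3 and 3 without scaling, 2 and 1 with quantile normalization), beside 13.7% and 18.4%. With rapamycin 2 rose and 3 fell in total RNA (5 and 2 without scaling, 3 and 4 with quantile normalization), beside 20.4% and 16.2%. In the rapamycin IP 3 rose and 6 fell (3 and 6, and 2 and 6), beside 32.2% and 40.3%. FKBP2, a chaperone of the endoplasmic reticulum, had 24.5 and 20.8 FPKM in the rapamycin IP, against 347, 227 and 270 FPKM in the control IP, a change of -3.87 ± 0.23 (adjusted p = 6.52e-07). Its total RNA averaged 13.4 ± 0.701 FPKM with rapamycin and 14.6 ± 1.81 FPKM in control cells, and the change of the IP relative to total RNA was -3.52 ± 0.34 (adjusted p = 3.79e-05). In control cells its IP exceeded total RNA by 4.36 ± 0.23 (adjusted p = 1.66e-07). FKBP14, another of the endoplasmic reticulum, also fell in the IP relative to total RNA with rapamycin, at -1.13 ± 0.12 (adjusted p = 5.13e-05). Quantile normalization reduced the size of these values, to -2.60 for FKBP2 in the rapamycin IP, -1.81 for FKBP2 and -0.59 for FKBP14 in the IP relative to total RNA, and 1.98 for FKBP2 in the IP against total RNA of control cells. FKBP10, which acts on collagen, averaged 5.50 ± 0.546 FPKM in the CDK12 siRNA IP and 2.53 ± 0.162 in the control IP, a rise of 0.74 ± 0.10 (adjusted p = 0.000796), and its IP rose relative to total RNA by 0.82 ± 0.15 (adjusted p = 0.00272). With rapamycin FKBP10 was called higher too, in both fractions and in the IP relative to total RNA. FKBP15 rose in total RNA after CDK12 siRNA by 0.59 ± 0.05 (adjusted p = 2.1e-05), with means of 1.10 ± 0.0311 FPKM after CDK12 siRNA and 0.508 ± 0.0417 in control cells. Its IP relative to total RNA changed by -0.64 ± 0.07 (adjusted p = 0.000235). FKBP15 passed the filter through CDK12 siRNA total RNA alone, so these tests are descriptions. FKBP5, a glucocorticoid-induced co-chaperone whose gene holds MIR5690, averaged 0.430 ± 0.0240 FPKM in rapamycin total RNA and 1.06 ± 0.0219 in control total RNA, a change of -0.59 ± 0.05 (adjusted p = 7.6e-05), or -0.89 with quantile normalization. FKBP5 was also called lower in the rapamycin IP and in both fractions after CDK12 siRNA. It passed the filter through control total RNA alone, so these tests are descriptions too.

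**Figure D4:**
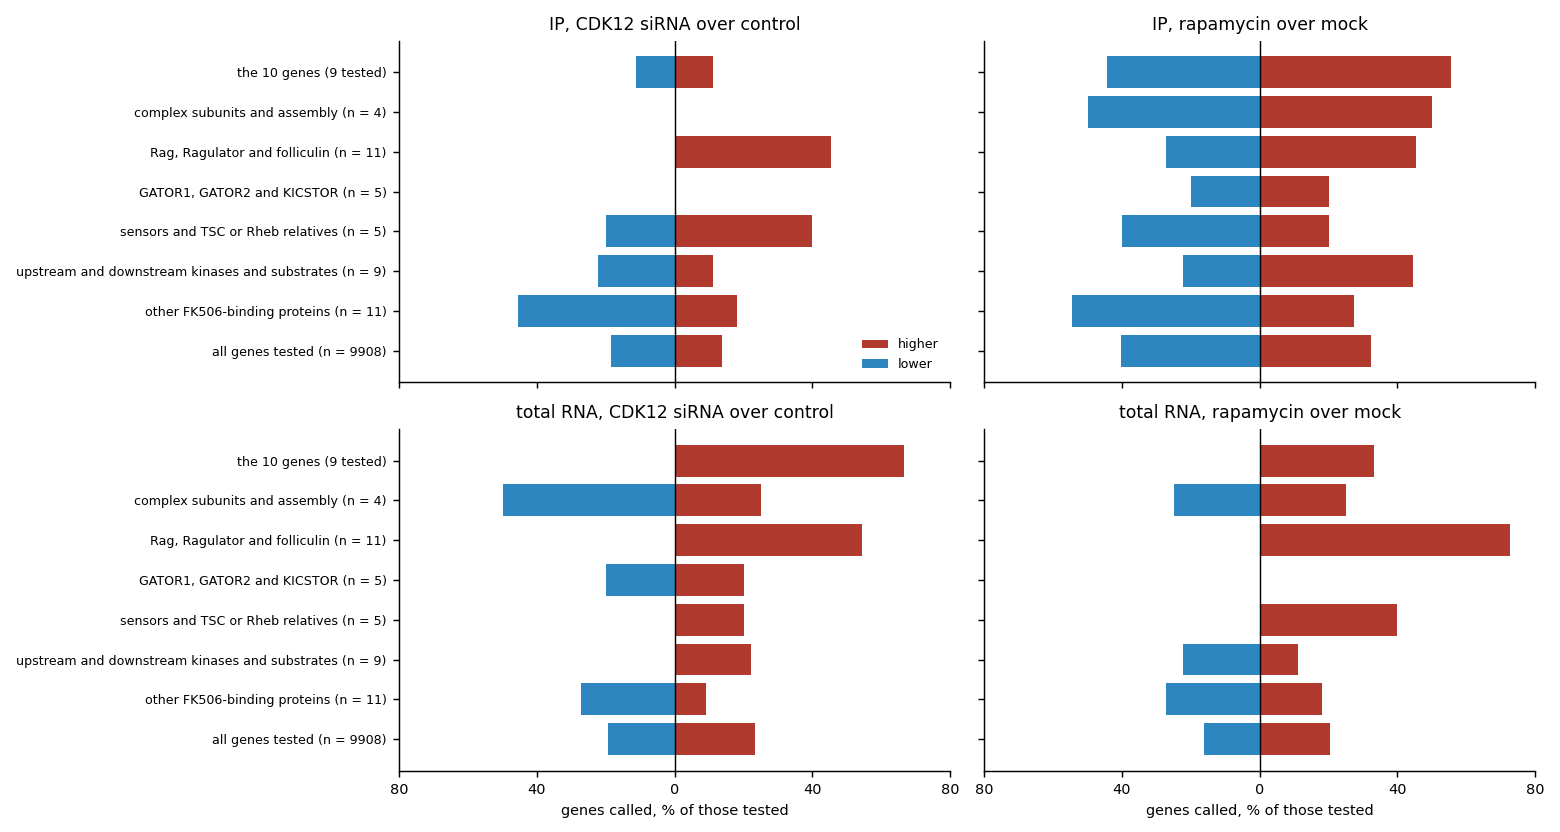
Percent of tested genes called higher (right, red) or lower (left, blue) in each role of the pathway, in the 10 genes and in all 9908 tested genes, for the eIF4G IP (top) and total RNA (bottom) after CDK12 siRNA (left panels) and with rapamycin (right panels). The Rag, Ragulator and folliculin group has no bar to the left in total RNA, which without scaling or with quantile normalization would hold 1 of 11 genes after CDK12 siRNA.

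Further named genes differed between IP and total RNA within a condition. EIF4EBP1, a translation repressor and substrate of mTORC1, was higher in the IP of rapamycin cells by 0.87 ± 0.09 (adjusted p = 0.000295), and so was FKBP9 by 0.65 ± 0.07 (adjusted p = 0.000316). EIF4EBP1 averaged 2.01 ± 0.314 FPKM in the rapamycin IP and 0.655 ± 0.0460 in rapamycin total RNA. FKBP7, which overlaps MIR548N, was higher in the IP of CDK12 siRNA cells by 1.96 ± 0.11 (adjusted p = 2.59e-07), and FKBP4 in the IP of control cells by 1.70 ± 0.09 (adjusted p = 1.58e-07), a direction that quantile normalization turned (-0.27). These differences were not particular to the condition named. EIF4EBP1, FKBP9 and FKBP4 were called higher in the IP of every condition, and FKBP7 in control cells too but not in rapamycin cells. EIF4EBP1 and FKBP7 passed the filter through IP groups alone, so their tests are descriptions.

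Finally, genes whose pattern over the 13 libraries was most like that of MTOR and FKBP1A were ranked by Pearson's r among 2128 genes with a mean of at least 5 FPKM, as a description without a test, since the points share libraries and conditions. Those most like MTOR were FASN (r = 0.995), NPLOC4 (0.977) and AHNAK (0.974). Those most like FKBP1A were TXNRD1 (0.967), TM4SF1 (0.952) and RND3 (0.936).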

How the data were processed

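The authors deposited FPKM per gene over whole hg19 gene bodies, made with HOMER's gene counting, per the file headers. The submitters' processing notes also name FastQC and STAR 2.4.0k. The authors' deposited table also holds log2 differences of FPKM + 1 and TRUE or FALSE calls of lost binding. In its 26454 rows, 28 symbols that a spreadsheet had made into dates were repaired from the annotation column.

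FPKM was divided by median-ratio factors (0.865 to 1.23 per library), 1 was added, and log2 values were fitted with limma 3.58.1 (R 4.3.3; lmFit and eBayes with a trend) as 6 groups without covariates, giving 9.22 degrees of freedom. Genes with at least 1 FPKM in at least 2 libraries were kept. Each of the 9 contrasts had its own Benjamini-Hochberg adjustment. Low FPKM values were whole multiples of 1 read (100% within 0.02 reads), which gave the depths. Intervals are 95% intervals of the fit. Replicate numbers come from the labels, and no pair of replicates agreed within counting noise.

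Named genes are the 10, CDK12, the 2 called pathway genes with the smallest p per contrast (mean of at least 1 FPKM in a compared group), and the 3 genes most like MTOR and FKBP1A. FKBP1A-like and MTOR-like genes had a mean of at least 5 FPKM. LAMTOR2, LAMTOR3 and LAMTOR5 were named after their values were seen. The genes and lists were chosen with earlier results of these data known. The fit was tested on simulated data. Python 3.11.15, pandas 2.3.3, numpy 2.4.6 and matplotlib 3.10.9 were used.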

Additional observations from a re-analysis of the deposited data

Results flagged for a closer look

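For 14 results the IP and total RNA differed in their response to a treatment, by the test of the difference itself (the interaction in the limma fit). After CDK12 siRNA the IP changed relative to total RNA by -1.06 for RHEB, -0.75 for FKBP1A, -0.48 for RICTOR, -0.44 for TSC1, -0.40 for SESN2 and -0.21 for TSC2, with adjusted p-values between 0.00171 and 0.0382. With rapamycin it changed by -1.59 for DDIT4, -1.23 for RHEB, -0.45 for FKBP1A and -0.38 for SESN2, and by 0.47 for RICTOR, 0.42 for MTOR, 0.35 for TSC1 and 0.34 for TSC2, with adjusted p-values between 4.76e-05 and 0.0231. MTOR and TSC2 passed the filter on low values through rapamycin groups alone, and with no filter their adjusted p was 0.000116 and 0.00213. SESN2 passed that filter through the CDK12 siRNA groups. RHEB, FKBP1A and SESN2 were lower under each treatment, and RICTOR, TSC1 and TSC2 were lower after CDK12 siRNA and higher with rapamycin. Both sets of values use the same control libraries, and the difference between the treatments was not tested. No group of libraries was large enough for a test of single outlying libraries.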

How the results depend on the processing

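Over 1029 repeats of single-gene results under the alternatives, 968 kept their side of the threshold, 38 lost a call, 18 gained one and 5 turned sign with a call. A value that turned sign without a call on either side counts among the 968. MTOR in total RNA after CDK12 siRNA, for example, ran from -0.11 to 0.06. With quantile normalization DDIT4 in the rapamycin IP turned to 0.30, DDIT4 in the IP against total RNA of rapamycin cells to -0.0206, and in CDK12 siRNA cells FKBP1A to -0.86 and RRAGC to -0.0458. The IP of CDK12 siRNA cells against total RNA gave -0.17 for RHEB without IP CDK12 siRNA replicate 2 and 0.39 without replicate 3, both called. The TSC2 change of the IP relative to total RNA after CDK12 siRNA, -0.21, lost its call in 11 of 16 alternatives (-0.06 without scaling). The cause of these changes was not tested.

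A filter at a mean of 2 FPKM left only DDIT4, RRAGC and FKBP1A to test. It gave 2 calls in total RNA after CDK12 siRNA (6 without it), 1 in the IP after CDK12 siRNA (2), 3 in the rapamycin IP (9), 1 and 2 in the IP relative to total RNA after CDK12 siRNA and with rapamycin (6 and 8), and 2 and 3 in the IP against total RNA of CDK12 siRNA and control cells (6 and 9). Without scaling there were 5 calls in rapamycin total RNA (3 with it), 4 in the IP after CDK12 siRNA (2) and 3 in the IP relative to total RNA after CDK12 siRNA (6). Library weights gave 5 calls in rapamycin total RNA, and fitting the compared groups alone gave 1 in the IP after CDK12 siRNA. Leaving out 1 library gave 4 to 6 calls in total RNA after CDK12 siRNA, 2 to 3 with rapamycin, 2 to 3 in the IP after CDK12 siRNA, 8 to 9 with rapamycin, 5 to 6 and 6 to 8 in the IP relative to total RNA, and 6 to 7, 3 to 4 and 9 to 9 in the IP against total RNA of CDK12 siRNA, rapamycin and control cells. Without either rapamycin total RNA library MTOR missed the filter and was not tested, which lowers the count of the IP relative to total RNA with rapamycin. Over all genes, fitting the compared groups alone gave 456 up and 564 down in the IP after CDK12 siRNA (1354 and 1820 in the joint fit), and library weights 427 and 679 there and 3397 and 2419 in rapamycin total RNA (2025 and 1608). The other filters change how many genes are tested (24150 with none, 4695 at a mean of 2 FPKM, against 9908). With none, 6 comparisons moved by over 1.5 times, to 2439 to 6599 genes up and 3580 to 8126 down, and at a mean of 2 FPKM each of the 9 did, to 568 to 3618 up and 182 to 2666 down.

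With the replicate number as a block the calls were 6, 3, 2, 9, 5, 7, 6, 4 and 9 in the order just given. It ended the calls of TSC2 after CDK12 siRNA (-0.19, adjusted p = 0.0522) and of FKBP1A with rapamycin (-0.41, adjusted p = 0.0502) in the IP relative to total RNA. Deviations of the 26 same-numbered pairs of libraries correlated at -0.11 to 0.17. In a group of 2 libraries the deviations mirror each other, so these values cannot tell whether same-numbered libraries share a culture.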
